A study of Mus musculus with 2 samples.

Results

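The miR-181 family was followed in microRNA-seq libraries from mouse hippocampus. Its members were all 6 miRNA genes that annotation GENCODE M21 names Mir181a-1, Mir181a-2, Mir181b-1, Mir181b-2, Mir181c and Mir181d, out of 2202 miRNA genes listed in each table. They form 3 clusters of neighbouring genes, here called a-1/b-1, a-2/b-2 and c/d. The tissue came from male B6CASTF1/J mice, the first-generation hybrid of C57BL/6J and CAST/EiJ, aged 2 months and given no treatment that the labels name. All samples belong to 1 group, with biological replicates 1 and 2. Each has its own biosample entry, but both cite 1 donor entry, so the spread given is between these 2 libraries, and variation from animal to animal may lie outside it. With no second group, the comparisons are between genes, clusters and families and between the libraries. Reads from the C57BL/6J and CAST/EiJ alleles are counted together.

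A microRNA is excised from a hairpin-shaped precursor, and each hairpin can yield a product from its 5p arm and another from its 3p arm. Loaded into Argonaute proteins, they lower the stability and translation of messenger RNAs that pair with the seed, bases 2 to 8 of the microRNA. The miR-181 family is known for setting the sensitivity of mouse thymocytes to antigen through miR-181a, and miR-181a has been described in cultured hippocampal neurons as a repressor of the AMPA receptor subunit GluA2.

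The mature sequences decide which of the 6 genes a read can be placed on, so all distinct ones are shown, from RefSeq on GRCm38.p6, with the seed in capitals. All 6 genes matched the table by symbol. The 4 distinct 5p sequences carry 1 seed, ACAUUCA, and no gene outside the family lists a mature sequence with it.
miR-181a-5p, listed for both Mir181a-1 and Mir181a-2: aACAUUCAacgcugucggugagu
miR-181b-5p, listed for both Mir181b-1 and Mir181b-2: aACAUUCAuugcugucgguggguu
miR-181c-5p: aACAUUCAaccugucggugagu
miR-181d-5p: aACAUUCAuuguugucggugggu

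Counted from 1 at the 5′ end, miR-181b-5p and miR-181d-5p differ by a single substitution, C12U, over the length they share. The substitutions A9U, C10U and A21G separate miR-181a-5p and miR-181b-5p. The sequences of miR-181a-5p and miR-181c-5p differ by an edit distance of 1, a single base present in the first and absent from the second. All 4 are therefore close in sequence, but only miR-181c-5p and miR-181d-5p are listed for 1 gene each.

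The 3p sequences differ in all 6 genes, and they are shown because a read from this arm can tell the copies of miR-181a and miR-181b apart.
miR-181a-1-3p: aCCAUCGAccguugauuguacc
miR-181a-2-3p: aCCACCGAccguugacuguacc
miR-181b-1-3p: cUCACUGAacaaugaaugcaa
miR-181b-2-3p: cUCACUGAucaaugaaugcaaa
miR-181c-3p: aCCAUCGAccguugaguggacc
miR-181d-3p: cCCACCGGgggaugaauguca

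The substitutions U5C and U16C separate the 3p products of Mir181a-1 and Mir181a-2, and U5C lies in the seed. The 3p products of Mir181b-1 and Mir181b-2 share their seed and differ by A9U, besides 1 base more at the 3′ end of the second. The 3p products of Mir181a-1 and Mir181c share a seed as well, with U16G and U19G between them.

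The hairpins of the duplicated genes show how far the copies agree around the 5p sequence. Capitals mark the longest run that both copies hold.
Mir181a-1: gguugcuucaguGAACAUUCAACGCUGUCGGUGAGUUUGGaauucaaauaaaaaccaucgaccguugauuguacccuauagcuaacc
Mir181a-2: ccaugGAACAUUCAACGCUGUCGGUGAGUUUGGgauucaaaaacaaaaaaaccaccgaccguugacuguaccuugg
Mir181b-1: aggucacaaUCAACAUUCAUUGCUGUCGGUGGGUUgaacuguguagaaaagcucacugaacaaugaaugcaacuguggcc
Mir181b-2: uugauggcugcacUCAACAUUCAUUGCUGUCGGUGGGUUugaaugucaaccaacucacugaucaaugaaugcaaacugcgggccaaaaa

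The shared run of the Mir181a copies is 28 nt long and goes 4 bases past the 3′ end of miR-181a-5p. That of the Mir181b copies is 26 nt long and ends with the last base of miR-181b-5p. A read that lies inside a shared run has at least 2 places in the genome.

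Depth and placement bear on every value below. The strand of a miRNA gene took 2322520 of the 6441333 reads of replicate 1 and 3414105 of the 10003856 reads of replicate 2. Multimapping reads were a separate class of 42.6% of replicate 1 and 46.0% of replicate 2 and were in no gene's count. How many of them came from the miR-181 genes was not measured. The counts of Mir181a-1, Mir181a-2, Mir181b-1 and Mir181b-2 therefore describe placed reads only. Reads of these genes that lie inside a shared run, as the listed 5p sequence does, are outside their counts. For Mir181c and Mir181d, neither arm's sequence is listed for another gene. No gene's count is split by arm. CPM is the count scaled to 1000000 same-strand counts over all miRNA genes of a library. The limit that a count of 0 allows, 3 counts, corresponds to 1.29 CPM for replicate 1 and to 0.879 CPM for replicate 2. Intervals and this limit cover counting error only, since the reads carry no molecular identifiers.

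All 6 genes were detected, which means at least 2 CPM in each library, a level that 18.2% of the 2202 listed genes reached. As a family they had 12753 counts in replicate 1 and 20027 in replicate 2, or 5491 and 5866 CPM, which is 0.568% ± 0.0265 (SD, n = 2) of miRNA-gene counts. The genes fell into a high set of 4, at 588 CPM or more in both libraries, and a low set of 2, at 14.1 CPM or less in both. The low set held 1 gene of the a-1/b-1 cluster and 1 gene of the a-2/b-2 cluster.

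The c/d cluster, whose mature sequences each have 1 gene, held most of the family's placed reads. Its sum was 3965 ± 348 CPM (SD, n = 2), or 69.8% ± 2.87 of the family's counts. Reads of miR-181a-5p and miR-181b-5p that fit both copies are in no gene's count. The share thus does not rank the clusters by full abundance. Mir181c (ENSMUSG00000065483.2) lies on chromosome 8, positions 84178873 to 84178961 of mm10, and Mir181d (ENSMUSG00000076338.1) at 84178716 to 84178787, 85 bases away. Both are on the minus strand and lie in introns of Nanos3, a gene known for its part in germ cell maintenance, which is on the same strand. Mir181d had 4767 counts in replicate 1, or 2053 CPM, and 6618 counts in replicate 2, or 1938 CPM. Mir181c had 3871 counts in replicate 1, or 1667 CPM, and 7760 counts in replicate 2, or 2273 CPM. The order of the pair thus differed between the libraries. Mir181c held 44.8% of the cluster in replicate 1 (Wilson 95% interval 43.8 to 45.9) and 54.0% in replicate 2 (53.2 to 54.8), and the intervals did not overlap.

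In the a-1/b-1 cluster nearly all counts were on Mir181a-1. Mir181a-1 (ENSMUSG00000065565.1) lies on chromosome 1, positions 137966455 to 137966541 of mm10, and Mir181b-1 (ENSMUSG00000065458.1) at 137966639 to 137966718, 97 bases away, both on the plus strand. Both lie in an intron of the noncoding gene Gm4258, and both overlap an exon of the lincRNA gene A430106G13Rik, which starts at 137966531 within the Mir181a-1 hairpin. Mir181a-1 had 1366 counts in replicate 1, or 588 CPM, and 2215 in replicate 2, or 649 CPM. Mir181b-1 had 27 counts in replicate 1, or 11.6 CPM (Wilson 95% interval 7.99 to 16.9), and 34 in replicate 2, or 9.96 CPM (7.13 to 13.9). Mir181a-1 held 98.1% of the cluster in replicate 1 (97.2 to 98.7) and 98.5% in replicate 2 (97.9 to 98.9). It exceeded its neighbour 49.7-fold in replicate 1 and 64.2-fold in replicate 2.

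In the a-2/b-2 cluster the order was the other way round, with nearly all counts on the b gene. Mir181a-2 (ENSMUSG00000065423.1) lies on chromosome 2, positions 38852735 to 38852810 of mm10, and Mir181b-2 (ENSMUSG00000065578.1) at 38853830 to 38853918, 1019 bases away, both on the plus strand. They lie opposite an intron of Nr6a1, an orphan nuclear receptor gene, and Mir181b-2 also lies opposite an exon of the unclassified gene Gm44144. Mir181b-2 had 2696 counts in replicate 1, or 1161 CPM, and 3352 in replicate 2, or 982 CPM. Mir181a-2 had 26 counts in replicate 1, or 11.2 CPM (7.64 to 16.4), and 48 in replicate 2, or 14.1 CPM (10.6 to 18.6). Mir181b-2 held 99.0% of the cluster in replicate 1 (98.6 to 99.3) and 98.6% in replicate 2 (98.1 to 98.9), an excess of 102-fold and 69.1-fold over its neighbour. No read of replicate 1 or replicate 2 was counted on the opposite strand of any of the 6 genes, and the column for both strands together gave the same counts for all 6.

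**Figure D1:**
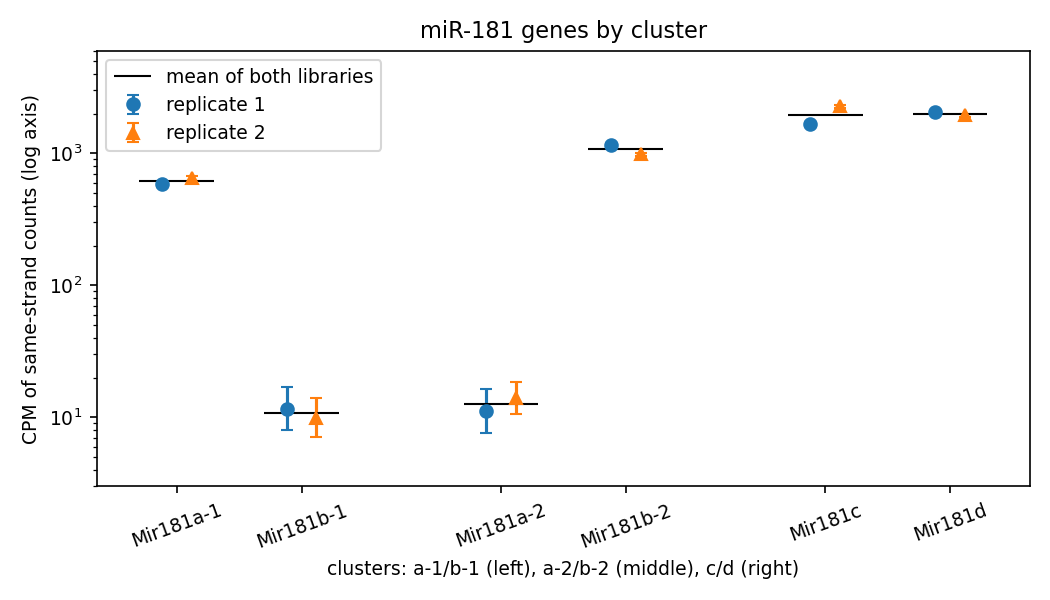
CPM on a log axis of each miR-181 gene, grouped by cluster, in replicate 1 (blue circles) and replicate 2 (orange triangles), with Wilson 95% intervals as error bars and the mean as a black line. Mir181b-1 and Mir181a-2 sit near 10.8 and 12.6 CPM, while their cluster neighbours have means of 618 and 1071 CPM.

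By mean level the order was Mir181d at 1995 ± 80.7 CPM, Mir181c at 1970 ± 429, Mir181b-2 at 1071 ± 127, Mir181a-1 at 618 ± 42.9, Mir181a-2 at 12.6 ± 2.03 and Mir181b-1 at 10.8 ± 1.18 (SD, n = 2). These are levels of placed reads per gene, and the listed mature sequences are alike in length, at 21 to 24 nt. Reads within the 5p product that the Mir181a or the Mir181b copies share are in no gene's count, unlike those of Mir181c and Mir181d. The order and the ratios below thus do not rank the genes by full abundance. A log2 ratio between genes was said to exceed the replicate spread if its sign was the same in both libraries and its mean was above 2 SD. These ratios carry no p, since an exact sign-flip test of 2 libraries cannot go below 0.5. Of the 5 neighbouring pairs in this order, 2 met the rule. They were Mir181b-2 over Mir181a-1, with a log2 ratio of 0.79 ± 0.27 (SD, n = 2), and Mir181a-1 over Mir181a-2, with 5.60 ± 0.12. Mir181d and Mir181c, Mir181c and Mir181b-2, and Mir181a-2 and Mir181b-1 did not differ beyond their spread, at log2 ratios of 0.04 ± 0.37, 0.87 ± 0.49 and 0.22 ± 0.39. Over all 15 pairs of members, 12 met the rule.

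Among the 401 detected genes Mir181d ranked 61 and Mir181c 62, followed by Mir181b-2 at 91 and Mir181a-1 at 115. Mir181a-2 ranked 295 and Mir181b-1 309. The genes with levels most like theirs were found by the Euclidean distance of log2(CPM + 1) over the 2 libraries. Mir1839 was nearest to Mir181d, at 1970 CPM in replicate 1 and 1937 in replicate 2 (distance 0.0593). Mir130a was nearest to Mir181c, at 1604 and 2032 CPM (0.171), and Mir27b to Mir181b-2, at 1194 and 1107 CPM (0.177). Mir1843b was nearest to Mir181a-1, at 567 and 630 CPM (0.0679), and Mir5113 to Mir181a-2, at 12.1 and 14.1 CPM (0.0984). Mir669l had the same 27 and 34 counts as Mir181b-1. The second nearest genes were Mir342 for Mir181d, Mir874 for Mir181c, Mir484 for Mir181b-2, Mir425 for Mir181a-1, Mir192 for Mir181a-2 and Mir3097 for Mir181b-1, at distances of 0.0903 to 0.323. With 2 libraries this is a likeness of level and carries little information on shared pattern.

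**Figure D2:**
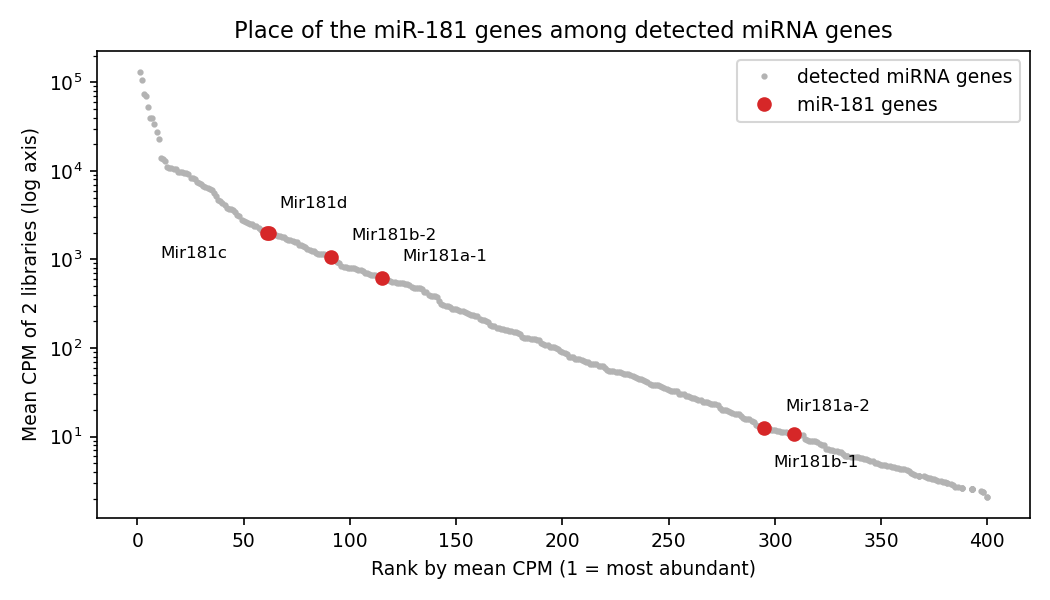
Mean CPM over both libraries on a log axis against rank for the 401 detected miRNA genes (grey), with the miR-181 genes in red. Mir181d, Mir181c, Mir181b-2 and Mir181a-1 lie between ranks 61 and 115, and Mir181a-2 and Mir181b-1 at ranks 295 and 309.

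The copies of a shared mature sequence were set beside each other by their placed reads. Each pair lists the same 5p product, and a read that lies within it fits both copies. Mir181a-1 exceeded Mir181a-2 51.6-fold in replicate 1 and 45.7-fold in replicate 2. Mir181b-2 exceeded Mir181b-1 98.1-fold in replicate 1 and 97.2-fold in replicate 2. Each high copy is in another cluster, Mir181a-1 on chromosome 1 and Mir181b-2 on chromosome 2. In the RefSeq table, 20 pairs of detected genes listed a mature sequence held by these 2 genes and no other, with at least 1 other mature sequence that the pair does not share. Genes listing a sequence held by more than 2 genes were left out. Mirlet7c-2 is in 2 of the pairs, through a different sequence in each. The median fold between the genes of a pair was 4.87 over these 20 pairs. The shared sequence could be of either arm, so the arm left to be placed can differ from pair to pair. A single pair had a wider fold than the Mir181b genes, Mir219a-2 over Mir219a-1, at a geometric mean of 179-fold, and the Mir181a genes came next after the Mir181b genes. With pairs in which at least 1 gene was detected, 2 pairs had a wider fold than the Mir181b genes, the added one being Mir194-2 over Mir194-1, whose lower gene had 0 counts in both libraries, so that its fold rests on the 0.5 added to each count and is no bound. Mir92-1 over Mir92-2 followed at 32.1-fold, while the narrowest folds were those of Mir138-1 over Mir138-2 at 1.79 and 1.25 in replicates 1 and 2, and, by geometric mean, Mir24-2 over Mir24-1 at 1.34 and Mir26a-2 over Mir26a-1 at 1.26, which turned round between the libraries. The gene placed first in a pair is the higher by the mean log2 ratio. This comparison was chosen after the values of the miR-181 genes had been seen and carries no test. Reads of the shared arm that fit both copies are outside these counts in every pair, and their part in the folds was not tested.

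**Figure D3:**
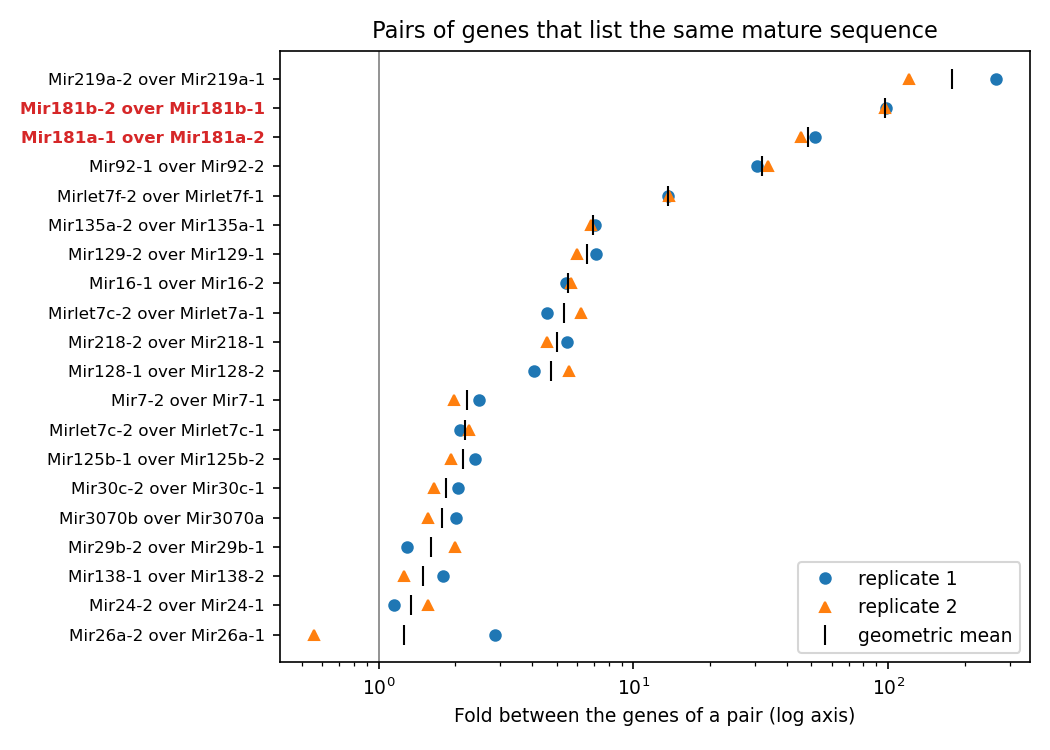
Fold between the genes of each of 20 pairs that list the same mature sequence (log axis), higher over lower by the mean log2 ratio, in replicate 1 (blue circles) and replicate 2 (orange triangles), with the geometric mean as a black tick and the miR-181 pairs in red. The Mir181b and Mir181a pairs lie at 97.6-fold and 48.5-fold, against a median of 4.87.

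Next to other families with duplicated members, the miR-181 family had fewer placed reads and drew a larger share of them from duplicated genes. Multimapping reads are outside these sums, and 4 of the 6 miR-181 genes carry a copy suffix, against 2 of 7 miR-30, 2 of 4 miR-29 and 2 of 6 miR-23/27/24 genes, so the sums do not compare the full abundance of the families. Its sum was 0.450 times that of the 7 miR-30 genes in replicate 1 and 0.403 times in replicate 2, a log2 ratio of -1.23 ± 0.11 (SD, n = 2). Against the 4 miR-29 genes the log2 ratio was -1.06 ± 0.08, and against the 6 genes of the miR-23/27/24 clusters -2.56 ± 0.11. All 3 met the rule of 2 SD. Genes with a copy suffix gave 32.3% of the family's counts in replicate 1 and 28.2% in replicate 2, nearly all of it from Mir181b-2 and Mir181a-1. In the miR-30 family the same share, from Mir30c-1 and Mir30c-2, was 4.12% and 2.73%. It was 0.807% and 0.733% in the miR-29 family, from the Mir29b genes, and 0.160% and 0.221% in the miR-23/27/24 clusters, from the Mir24 genes. Compared with the miR-30 family, the miR-181 share was higher by 26.8 ± 1.88 percentage points. The gap was 29.5 ± 2.82 to the miR-29 family and 30.05 ± 2.92 to the miR-23/27/24 clusters. All 3 gaps were beyond 2 SD. These shares, too, are of placed reads only. Reads that fit both copies of a pair are outside them, and the part of those reads in the gaps was not tested.

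The duplicated genes of those families lay 1.83-fold (Mir30c), 1.60-fold (Mir29b) and 1.34-fold (Mir24) apart by geometric mean, beside 48.5-fold and 97.6-fold for the Mir181a and Mir181b copies. Mir30c-2 was at 292 ± 64.6 CPM and Mir30c-1 at 157 ± 10.6 CPM. Mir29b-2 was at 55.9 ± 8.38 CPM and Mir29b-1 at 34.9 ± 5.45 CPM, Mir24-2 at 37.9 ± 16.4 CPM and Mir24-1 at 27.2 ± 6.23 CPM (SD, n = 2). The leading members of these families were Mir30d at 5259 ± 667 CPM, Mir29a at 10482 ± 1589 CPM and Mir23b at 22793 ± 2622 CPM.

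**Figure D4:**
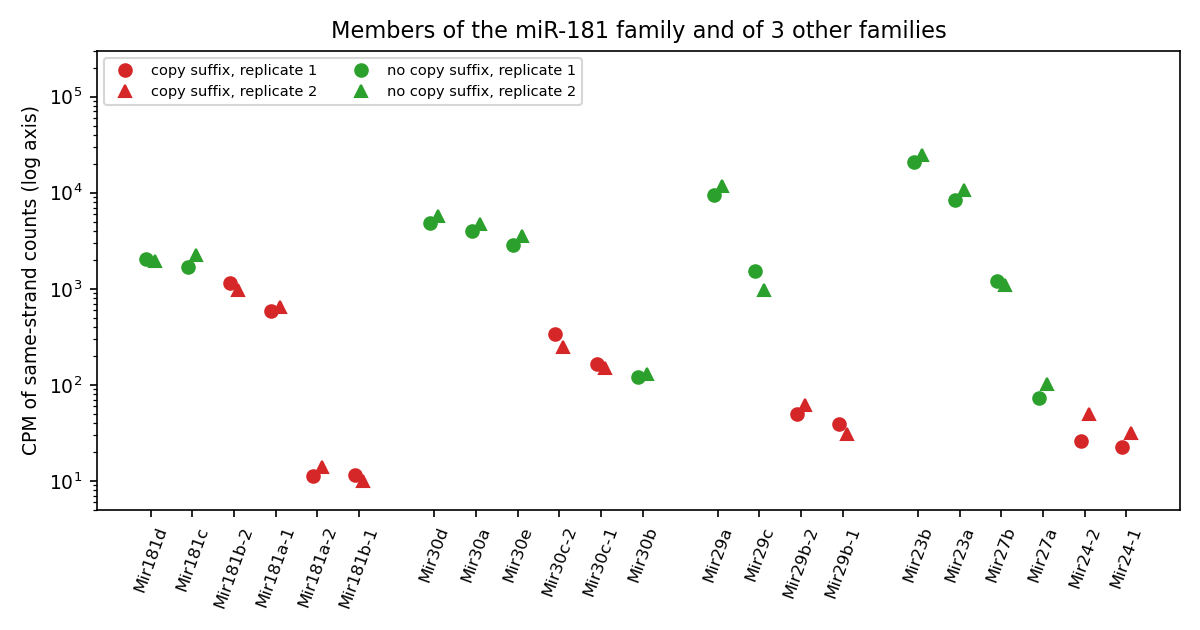
CPM on a log axis of the miR-181 genes and of the detected genes of the miR-30, miR-29 and miR-23/27/24 families drawn as circles for replicate 1 and triangles for replicate 2, and with copy-suffixed genes in red. Mir181b-2 and Mir181a-1, with means of 1071 and 618 CPM, lie above every other red point, whose highest mean is 292 CPM.

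Markers of cell types that the tissue can hold were measured in the same tables, because miR-181 is also known from lymphocytes. In bulk tissue, fewer cells of a type and less RNA per cell cannot be told apart. The miR-181 sum was 4.35 times the summed leukocyte and microglia list for replicate 1 and 3.66 times for replicate 2. Of that list 5 of 6 genes were detected, with sums of 1262 and 1601 CPM, led by Mir150, a microRNA of mature lymphocytes, at 767 ± 281 CPM, Mir146 at 541 ± 61.8 CPM and Mir142, made across blood cell lineages, at 78.2 ± 21.1 CPM. Mir223, a myeloid microRNA, had 1 count in replicate 1 and 27 in replicate 2. Mir181d alone was above the summed list in both libraries, and Mir181c as well.

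The neuron and plasticity list, with 9 of 11 genes detected, summed to 33707 and 48289 CPM, and the miR-181 sum was 0.163 times as high in replicate 1 and 0.121 times in replicate 2. It was led by the activity-regulated Mir132 at 10916 ± 278 CPM, Mir128-1 at 10712 ± 8760 CPM and Mir137 at 10433 ± 2456 CPM (SD, n = 2). Its lowest genes were those of the neuronal microRNA miR-124, made at several loci. Mir124a-1 was at 2.90 ± 0.452 CPM. Mir124a-3 and Mir124a-2 were below detection, at 0 and 5 counts and at 1 and 0 counts in replicates 1 and 2. Reads that fit more than 1 of these loci are in no gene's count. These values and the list sum therefore cover placed reads only and do not give the full level of miR-124. Mir126a, the endothelial marker, was at 13681 ± 1707 CPM, and the miR-181 sum was 0.369 and 0.470 times as high. The choroid plexus list, with 4 of 5 genes detected and led by Mir204, was exceeded by the miR-181 sum 5.22-fold and 5.90-fold, and the erythrocyte list, with all 3 genes detected and led by Mir451a, 2.86-fold and 5.10-fold. The ratio to the oligodendrocyte list, whose 3 genes were all detected, was 1.26 and 2.19. It did not exceed the spread by the 2 SD rule. In that list Mir219a-1 and Mir219a-2 have a mature sequence in common, so reads that fit both are outside its sum. The miR-181 sum likewise leaves out reads that fit both copies of miR-181a or miR-181b. The lists differ in length, so these ratios do not compare levels per gene, and the part of each cell type in the miR-181 counts was not tested.

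Between the libraries, 4 of the 6 miR-181 genes differed beyond counting error by the two-sided exact binomial test with TMM library sizes and Benjamini-Hochberg adjustment over the 401 detected genes, of which 50.9% differed. Of the detected genes, 22.7% passed the test and were higher in replicate 1, among them Mir181b-2 and Mir181d. A further 28.2% passed it and were lower, among them Mir181c and Mir181a-1. The widest of the 4 was Mir181c, with a log2 ratio of -0.42 for replicate 1 over replicate 2, or 1.34-fold (adjusted exact binomial p = 1.43e-50). Mir181b-2 was 1.20-fold higher in replicate 1 (adjusted exact binomial p = 4.84e-12) and Mir181d 1.08-fold higher (adjusted exact binomial p = 0.000236). Mir181a-1 was 1.08-fold lower (adjusted exact binomial p = 0.0391), and this call was lost with DESeq2 size factors or without the filter on low values, at adjusted p of 0.157 and 0.0648 in the same test. Mir181a-2 and Mir181b-1, with 26 to 48 counts per library, had log2 ratios of -0.29 and 0.25 and did not pass the threshold.

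In the c/d cluster the neighbours thus went opposite ways, with Mir181d higher and Mir181c lower in replicate 1, and both passed the test. In each of the other clusters the low gene did not pass. Over the 6 genes the median fold between the libraries, higher over lower, was 1.20, beside 1.26 over all detected genes. The test compares 2 libraries, not conditions.

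**Figure D5:**
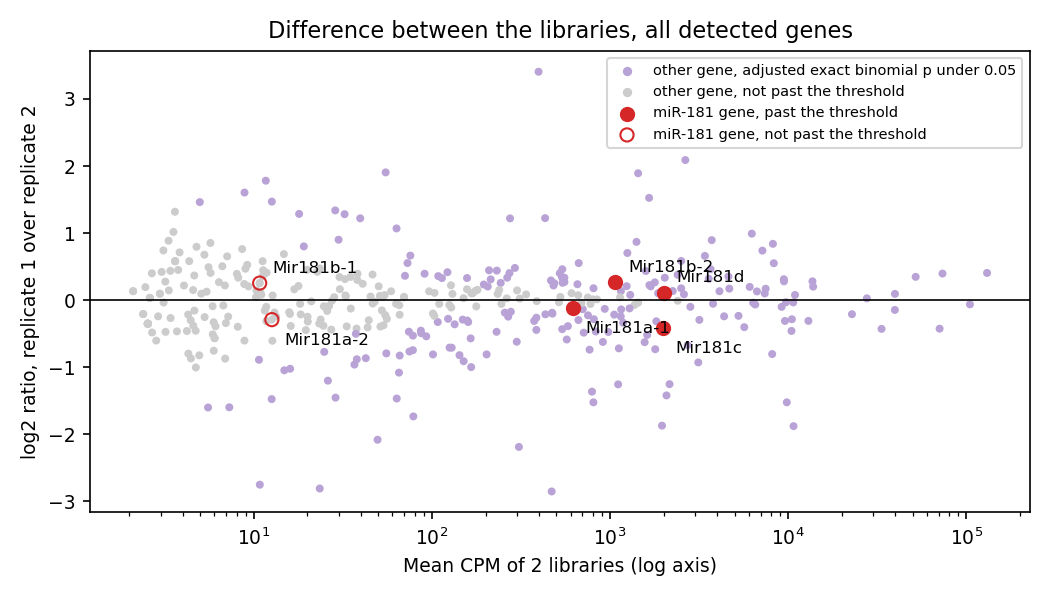
Log2 ratio of replicate 1 over replicate 2 against mean CPM (log axis) for the 401 detected genes, with miR-181 genes in red, filled where the adjusted exact binomial p passed the threshold. Mir181c lies lowest of the 6 at -0.42 and Mir181b-2 highest at 0.27.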

How the data were processed

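MicroRNA-seq was made from mouse hippocampus, with fragments under 30 nt per the labels, in 2 libraries of 1 group. The deposited values were raw read counts per miRNA gene, in columns for both strands, the gene's strand and the opposite strand. The strand meaning was read from the values. Assembly mm10 is named in the labels and annotation M21 in the sample notes; for the aligner and counter, no source used here gives a name. All 2202 gene identifiers matched GENCODE M21. Totals and tests left out 4 rows without a gene, which in replicates 1 and 2 held 16.2% and 15.1% unmapped, 42.6% and 46.0% multimapping, 5.16% and 4.70% no-feature and 0% and 0% ambiguous reads.

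Same-strand counts were scaled to 1000000 per library. Libraries were compared by a two-sided exact binomial test (scipy 1.17.1, threshold 0.05) with TMM factors of 0.991 and 1.01 from edgeR 4.0.16 in R 4.3.3, over genes at 2 CPM or more in both. The test was checked on simulated counts with counting error and set fold changes only. That check does not cover other variation between libraries. Log2 ratios used 0.5 added to each count. With 1 group there was no contrast for a quasi-likelihood test. Mature sequences came from RefSeq (GRCm38.p6) and were matched by symbol or listed synonym. Alternatives were DESeq2 1.42.0 size factors, other totals, the unstranded column, other filters and single libraries. The members and lists were chosen with earlier results of these data known. Genes named are the 6 members, the nearest genes by level, and leading members of the family and marker lists. Mir223, the Mir124a genes and the genes named only as pairs with a shared mature sequence, or as the duplicated genes of the other families, were chosen after their values were seen.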

Additional observations from a re-analysis of the deposited data

How the results depend on the processing

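The levels in CPM depend on the total they are scaled to. Without the 5 most abundant genes in the total, the sums were 1106 CPM for the a-1/b-1 cluster, 1913 for a-2/b-2, 6968 for c/d and 9988 for the family, and with all reads of the table in the total they were 220.5, 381, 1389 and 1991 CPM. With the unstranded column, whose total is smaller, the a-1/b-1 cluster and the family moved beyond 1 SD to 679 and 6131 CPM. With TMM or DESeq2 sizes every cluster sum and the family sum stayed within 1 SD. The shares of Mir181a-1, Mir181a-2 and Mir181c in their clusters do not depend on the total. The unstranded column could not move them, because it held the same counts for all 6 genes. With 1 library left out, the family sum was 5491 or 5866 CPM, Mir181a-1 held 98.1 or 98.5% of its cluster, Mir181a-2 0.955 or 1.41% and Mir181c 44.8 or 54.0%, so which gene led the c/d cluster depended on the library. Of the 6 genes, 3 differed between the libraries with DESeq2 sizes and 3 with no filter on low values, where more genes are tested, in place of 4, and Mir181a-1 was the call lost. Column totals and the unstranded column gave 4. The log2 ratios to the miR-30, miR-29 and miR-23/27/24 sums kept their sign and exceeded 2 SD with copy-suffixed genes left out, at -1.70, -1.56 and -3.08, and with the unstranded column, at -0.84, -1.06 and -2.56. At 1 CPM and at 10 CPM as the limit for detection, 6 and 5 of the 6 genes were detected. In an alternative chosen after seeing the data, pairs with at least 1 detected gene numbered 23, with a median fold of 5.32, which treats 0 counts as 0.5, and 2 of them had a wider fold than the Mir181b genes and 3 than the Mir181a genes, in place of 1 and 2. No paired analysis was possible because there is 1 group. For Mir181a-2 and Mir181b-1, counts of 26 to 48 limit the precision.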
